A study of Rattus norvegicus with 18 samples.

Results

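The comparison asks whether the kidney matures differently in rats that become hypertensive. It is the interaction of strain and age: the mean of the 6-week minus 3-week changes of SHR and SHRSP, minus the same change in WKY. The members were chosen by design and not by their values: 18 of 18 arrays entered, 6 from WKY and 12 from SHR and SHRSP, and of the 30367 probes on the array 30359 were fitted and 20749 were tested because they were well above background on every array of at least 1 group.

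Total kidney RNA was measured on single-colour Agilent whole rat genome arrays. WKY/Izm is the normotensive control strain, SHR/Izm becomes hypertensive as it grows, and SHRSP/Izm is a stroke-prone substrain of SHR. The paper considers the rats pre-hypertensive at both ages sampled. Below, hypertensive strains, groups and arrays are those of SHR and SHRSP, and no blood pressure entered the comparison. Each strain was sampled at 3 and at 6 weeks of age with 3 biological replicates, so 6 groups of 3 arrays entered the fit and every group value below rests on 3 arrays. The methods state that 3-week rats were held for 2 days before sampling and that 6-week rats were bought at 5 weeks and held for 1 week, and the sex of the animals was not given in the sources used. Signals were scaled array by array to the 75th percentile reached by clear spots and put on a log2 scale, so 0 is that level. The share of spots that passed as well above background ran from 70.8% to 76.9%, and precision is set by the 3 arrays of a group.

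In the weeks around weaning the proximal tubules of the rat kidney gain the transporters and enzymes with which they take up, hydroxylate, reduce and conjugate organic acids, fatty acids, steroids and drugs. Many of these genes rise with sexual maturation and with the change from milk to solid food, and several are expressed at different levels in the sexes. The same organ responds to angiotensin, kinins and aldosterone, and both activates and degrades vitamin D.

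The arrays lay on 5 slides that were scanned on 3 days, and the slides follow the groups. Slide 1 held the 3 WKY arrays of 3 weeks and SHR 3-week replicate 1. Slide 2 held SHR 3-week replicates 2 and 3 with SHRSP 3-week replicates 1 and 2, and slide 3 held SHRSP 3-week replicate 3 with the 3 WKY arrays of 6 weeks. All 6-week SHR and SHRSP arrays lay on slides 4 and 5, which held no other group. The interaction could therefore not be formed within a slide or a scan day, and for slides 4 and 5 slide and group cannot be told apart. SHRSP 3-week replicates 2 and 3 stood apart from the other 3-week arrays in a principal component analysis, at -29.0 on the third component for both, where the other 3-week arrays lay between -0.36 and 25.8. Replicates of a group correlated at 0.992 to 0.998 over the 18400 probes that were well above background on all 18 arrays.

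As labelled, SHR and SHRSP trade places between the ages for a set of probes. A total of 33 probes differed more than 4-fold between SHRSP and SHR at both ages, and 33 of them had the opposite sign at 6 weeks from that at 3 weeks. Agtrap, which encodes a protein that binds the angiotensin receptor and was chosen after its values were seen, is such a gene and was well above background on all 18 arrays. Its level was 1.41, 1.40 and 1.54 in WKY at 3 weeks, 1.29, 1.22 and 1.24 in SHR at 3 weeks, -3.59, -4.18 and -3.97 in SHRSP at 3 weeks, 1.89, 1.63 and 1.59 in WKY at 6 weeks, -2.87, -3.07 and -2.90 in SHR at 6 weeks, and 1.88, 1.95 and 2.03 in SHRSP at 6 weeks. SHRSP was lowest at 3 weeks and SHR at 6 weeks, without overlap. Relative to WKY its labelled change with age was -4.45 in SHR and 5.61 in SHRSP, while the pooled interaction was 0.58. Whether the labels of the 2 strains are exchanged at 1 of the ages was not tested, no array was moved, and the pooled comparison is the same either way. Changes given for SHR or SHRSP alone follow the labels.

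**Figure D1:**
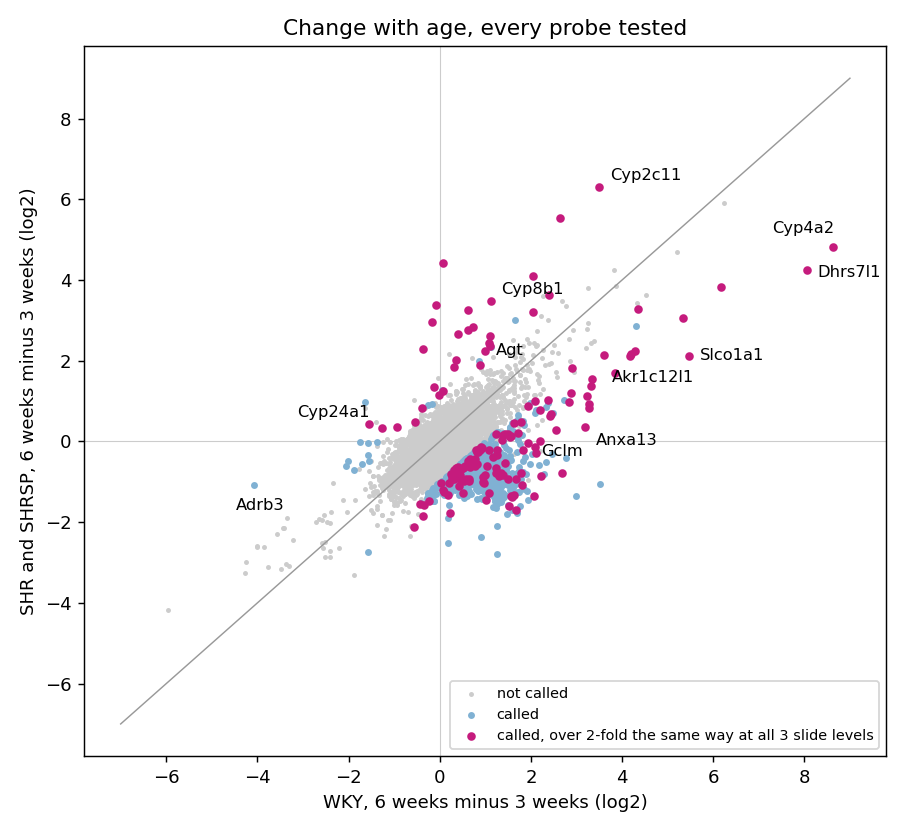
Each point is a tested probe, with its change from 3 to 6 weeks in WKY on the horizontal axis and in SHR and SHRSP pooled on the vertical axis, both as log2, and the grey diagonal marks equal change. Called probes lie mostly below the diagonal, 823 of 869; blue marks calls, and pink those over 2-fold the same way at all 3 slide levels.

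The change with age differed in size between the strain groups for some kidney genes and in direction for others. Cyp4a2, Slco1a1 and Akr1c12l1, which encode a fatty acid hydroxylase, an organic anion carrier and an aldo-keto reductase, rose far more in WKY: WKY began from a much lower level at 3 weeks, and at 6 weeks the strain difference was small. A smaller set went the other way: Cyp2c11 and a cluster of transcripts on chromosome 17 rose more in SHR and SHRSP, Agt rose more in the pool of these strains though not in SHRSP as labelled, and Cyp24a1 fell in WKY and did not fall in SHR and SHRSP. Most of the remaining calls were probes without a gene symbol whose signal also moved with the slides.

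A probe was called when its limma p, adjusted over the 20749 tested probes by the method of Benjamini and Hochberg, was under 0.05 and the difference was more than 2-fold. In the interaction 869 probes were called, which is 4.19% of those tested. Of these, 823 (3.97%) were lower in SHR and SHRSP, and 46 (0.222%) were higher. Lower means a smaller rise or a larger fall with age than in WKY, or a fall where WKY rose. The number of higher calls moved with the settings: it was 18 of 607 among probes well above background on all 18 arrays, 29 and 20 with normexp background correction, and 93 with quantile normalization. With no fold limit 4083 probes had an adjusted p under 0.05, 3499 lower (16.9%) and 584 higher (2.81%), and 183 of the called probes differed more than 4-fold. By the same rule growth changed 769 probes in WKY (3.71%), of which 611 rose, and 715 in the hypertensive strains (3.45%), of which 306 rose. These comparisons share arrays with the interaction and are given side by side.

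Called probes were divided by how their changes compared. Among the 823 lower probes, 447 changed in opposite directions with an adjusted p under 0.05 in each strain group, 176 changed less in SHR and SHRSP and are named blunted here, and 200 changed more and are named exaggerated. Among the 46 higher probes the counts were 3, 12 and 31. The strain difference was wider at 6 weeks than at 3 weeks for 674 of the lower and 33 of the higher probes. Among the 120 lower probes that kept over 2-fold at the 3 slide levels described below, the balance was another: 35 opposite, 58 blunted and 27 exaggerated, with a wider difference at 6 weeks for 66 and a narrower for 54. With a gene symbol 25 of these were wider and 34 narrower. SHR and SHRSP taken alone gave the same sign for 809 of the 823 lower and 45 of the 46 higher probes. This agreement is largely built in, since the pooled value is the mean of both and both subtract the same WKY arrays. The changes of SHR and SHRSP differed from each other with an adjusted p under 0.05 for 98 of the 869.

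The median interaction of all tested probes was -0.10, and under 4 other scalings it lay between -0.0090 and 0.05. List medians below are therefore to be read against -0.10. The share of called probes that were higher moved with the scaling, from 5.29% to as much as 14.6% with quantile normalization. For growth in WKY the share that rose went from 79.5% to 66.2% with quantile normalization, and for growth in the hypertensive strains from 42.8% to 56.3% with scaling by the median.

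Slide effects were estimated after the data had been seen. Slides 1, 2 and 3 each held 3-week SHR or SHRSP arrays, so the offset between them can be estimated, but slides 4 and 5 have no such link and were set in turn to the level of slide 1, 2 or 3. These 3 fits called 27, 47 and 380 probes, of which 9, 27 and 290 were among the 869. Their errors are larger, and 9 probes were called in all of them. Of the 869 probes, 149 kept a difference of more than 2-fold in the same direction in all 3 fits, 120 lower and 29 higher, and 78 of them had a gene symbol. Where slide-adjusted estimates are given below, they stand in the order of slides 1, 2 and 3, and a call is meant as the call without slide.

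Several genes with a blunted rise encode enzymes or transporters, while other blunted genes, such as Anxa13 and Acta1 below, have other roles. At 3 weeks those described next were higher in SHR and SHRSP than in WKY, and by 6 weeks the difference had narrowed. The list of xenobiotic and steroid metabolism had 61 tested genes, of which 4 were lower (6.56%), 2 were higher (3.28%) and the median interaction was -0.18. The 2 higher genes were Cyp2c11 and Cyp8b1. Cyp8b1 was tested only through groups where it is high, so its test is not counted, which leaves Cyp2c11. Over all tested probes with a gene symbol 1.94% were lower and 0.22% higher, and the list shares below stand beside these; in lists of this size a share rests on few genes. In WKY 12 of the 61 genes rose with age, and in the hypertensive strains 8 rose and 2 fell. Over all 20749 tested probes 611 rose and 158 fell in WKY, and 306 rose and 409 fell in the hypertensive strains. At any size, 14 genes of this list (23%) had an adjusted p under 0.05 in the lower direction and 2 (3.28%) in the higher, beside 12.8% and 3.22% of all tested probes with a symbol.

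Cyp4a2 is a cytochrome P450 that hydroxylates arachidonic acid and other fatty acids at the omega end (probe A_64_P019361, chr5:135547423-135547482, rn4). Its level was -3.43, -2.17 and -2.75 in WKY at 3 weeks, 0.75, 0.86 and 0.97 in SHR at 3 weeks, 1.17, 1.29 and 1.28 in SHRSP at 3 weeks, 5.95, 5.69 and 5.92 in WKY at 6 weeks, 5.94, 5.86 and 5.87 in SHR at 6 weeks, and 5.89, 5.88 and 5.76 in SHRSP at 6 weeks. The 3 WKY arrays of 3 weeks lay below every other array, the 6 hypertensive arrays of that age were intermediate, and all 9 arrays of 6 weeks overlapped at the top. Cyp4a2 rose 397-fold with age in WKY and 28.2-fold in SHR and SHRSP, an interaction of -3.82 ± 0.25 (log2, with ± for the standard error of the fit, here and below, adjusted p 7.44e-07), and the strain difference went from 3.83 at 3 weeks to 0.017 at 6 weeks. The slide-adjusted estimates were -3.45, -3.62 and -3.67. Probes annotated to its neighbour Cyp4a8 lie in the same stretch of the chromosome, and the signals of these related genes cannot be told apart with certainty. Cyp4a3 and Cyp4a8, both tested in the list, had interactions of -0.70 ± 0.080 and -0.80 ± 0.13, under the fold limit.

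Slco1a1 carries organic anions and steroid conjugates across the apical membrane of the proximal tubule (probe A_43_P15534, chr4:179492687-179492746). Its level was -4.46, -4.36 and -4.54 in WKY at 3 weeks, -1.36, -1.28 and -1.56 in SHR at 3 weeks, -0.69, -0.77 and -0.49 in SHRSP at 3 weeks, 1.28, 0.65 and 1.14 in WKY at 6 weeks, 1.06, 0.97 and 1.06 in SHR at 6 weeks, and 1.17, 1.18 and 1.1 in SHRSP at 6 weeks. At 3 weeks the strain groups did not overlap, with WKY lowest, and at 6 weeks they did. It rose 44.6-fold in WKY and 4.33-fold in the hypertensive strains, with an interaction of -3.36 ± 0.16 (adjusted p 2.54e-08) and slide-adjusted estimates of -3.20, -3.14 and -3.38. Akr1c12l1, an aldo-keto reductase of the family that reduces steroids and aldehydes, followed the same course (probe A_44_P156850, chr17:76971296-76971355). Its level was -3.86, -3.55 and -3.84 in WKY at 3 weeks, -1.47, -1.53 and -1.60 in SHR at 3 weeks, -1.18, -1.09 and -1.16 in SHRSP at 3 weeks, 0.46, 0.28 and 0.54 in WKY at 6 weeks, 0.76, 0.67 and 0.87 in SHR at 6 weeks, and 0.69, 0.88 and 0.75 in SHRSP at 6 weeks. WKY lay below both other strains at 3 weeks with no overlap, and remained below them at 6 weeks by a small margin, 0.35. Its interaction was -2.07 ± 0.11 (adjusted p 1.34e-07), on a rise of 18.1-fold in WKY and 4.31-fold in SHR and SHRSP.

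Dhrs7l1, a member of the short-chain dehydrogenase and reductase family that the array names Dhrs7, had a level of -6.75, -6.15 and -7.57 in WKY at 3 weeks, -3.17, -2.73 and -3.21 in SHR at 3 weeks, -1.89, -1.91 and -1.43 in SHRSP at 3 weeks, 1.51, 0.68 and 1.49 in WKY at 6 weeks, 1.92, 1.76 and 1.999 in SHR at 6 weeks, and 1.77, 1.92 and 1.84 in SHRSP at 6 weeks. The probe was well above background on 17 arrays, all but 1 of the 3 WKY arrays of 3 weeks, so the rise of WKY is imprecise. That rise was 8.05 against 4.26 in the hypertensive strains, and the interaction was -3.80 ± 0.35 (adjusted p 1.21e-05). At 3 and at 6 weeks WKY lay below both other strains without overlap. Its slide-adjusted estimates were -2.89, -3.09 and -3.55.

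**Figure D2:**
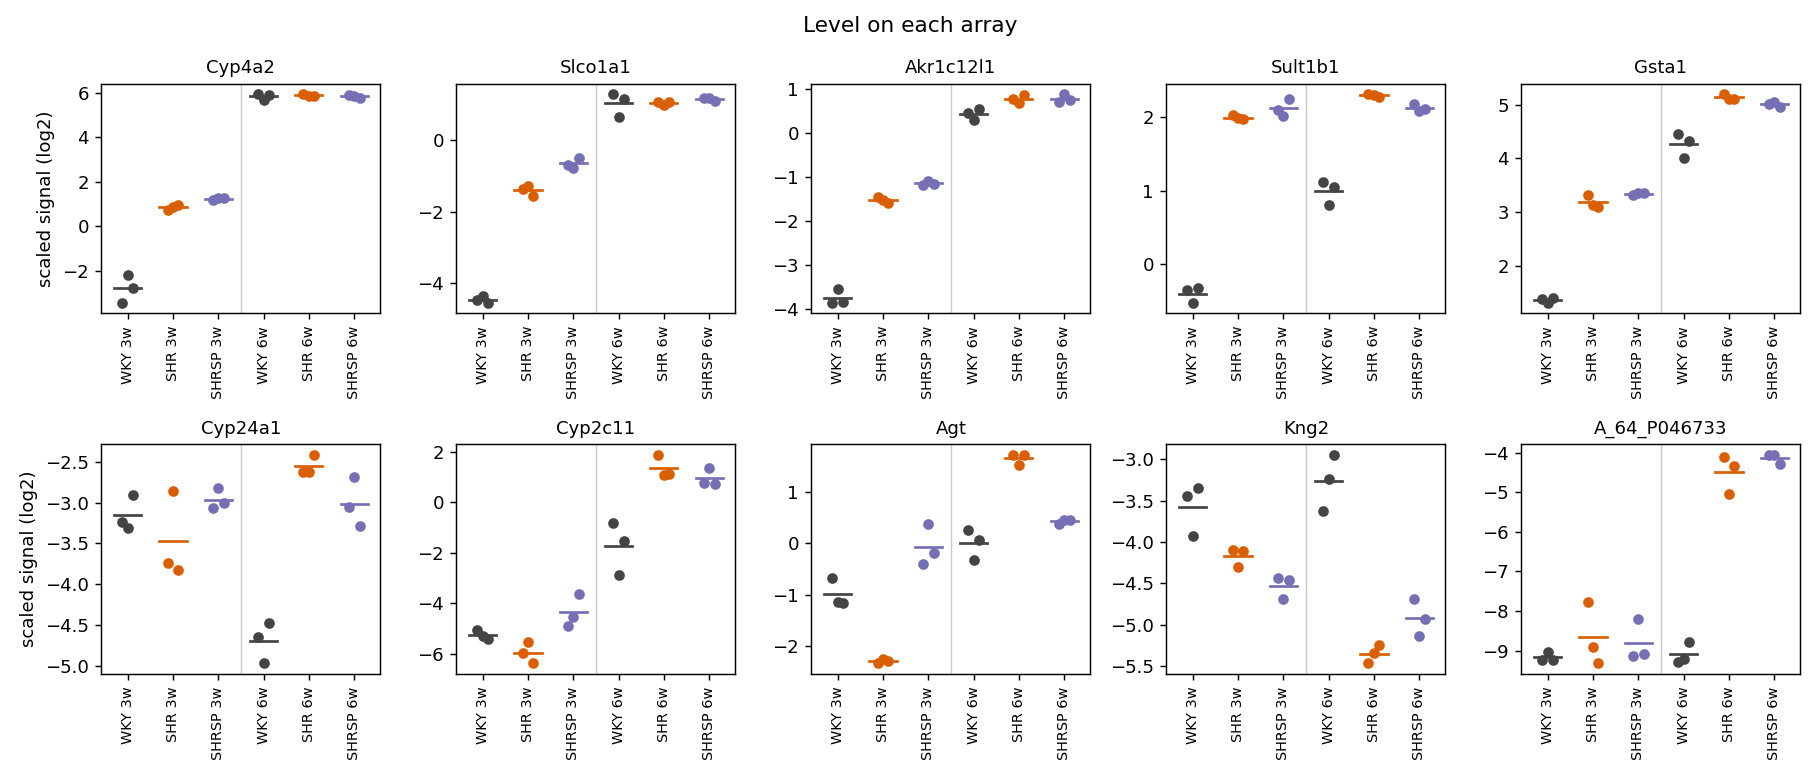
Each panel shows the scaled log2 signal of a gene or probe on every array, with dots for the 3 arrays of a group and bars for the group mean; the vertical line divides 3 weeks from 6 weeks. Cyp4a2, Slco1a1 and Akr1c12l1 are lowest in WKY at 3 weeks, and the chromosome 17 probe A_64_P046733 is high only in SHR and SHRSP at 6 weeks.

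A pair of conjugating enzymes belonged to the same group. Sult1b1, a sulfotransferase of thyroid hormones and phenols, had a level of -0.35, -0.52 and -0.32 in WKY at 3 weeks, 2.02, 1.99 and 1.97 in SHR at 3 weeks, 2.10, 2.02 and 2.25 in SHRSP at 3 weeks, 1.12, 0.80 and 1.06 in WKY at 6 weeks, 2.32, 2.30 and 2.27 in SHR at 6 weeks, and 2.18, 2.08 and 2.11 in SHRSP at 6 weeks. WKY was below SHR and SHRSP at both ages without overlap, and it alone rose by the threshold. Its change was 1.39 in WKY and 0.15 in the hypertensive strains, with an interaction of -1.24 ± 0.10 (adjusted p 6.85e-06), and another probe of Sult1b1 gave -1.44. With normexp background correction the value of gene Sult1b1 was -0.84 or -0.92, under the fold limit. Gsta1, a glutathione S-transferase that the array names Gsta3, had a level of 1.38, 1.31 and 1.40 in WKY at 3 weeks, 3.32, 3.13 and 3.10 in SHR at 3 weeks, 3.31, 3.35 and 3.35 in SHRSP at 3 weeks, 4.45, 4.004 and 4.33 in WKY at 6 weeks, 5.20, 5.11 and 5.11 in SHR at 6 weeks, and 5.01, 5.06 and 4.96 in SHRSP at 6 weeks. WKY was lowest at both ages, again without overlap. Gsta1 rose 7.47-fold in WKY and 3.51-fold in the hypertensive strains, an interaction of -1.09 ± 0.12 (adjusted p 3.44e-05). The call ended with other scalings, with values of -0.94 to -0.99 for gene Gsta1, without WKY 6-week replicate 1, with -0.99, with array weights (-0.95), with SHR alone (-0.95) and with 1 form of normexp correction (-0.91).

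Some other blunted genes were chosen after their values were seen. Tff3, a trefoil peptide of epithelial surfaces, rose by 3.61 in WKY and 2.15 in SHR and SHRSP, with an interaction of -1.46 ± 0.14 (adjusted p 1.6e-05). Its level was 1.43, 1.75 and 1.53 in WKY at 3 weeks, 3.11, 3.23 and 3.17 in SHR at 3 weeks, 3.70, 3.76 and 3.86 in SHRSP at 3 weeks, 5.40, 4.87 and 5.27 in WKY at 6 weeks, 5.65, 5.64 and 5.66 in SHR at 6 weeks, and 5.59, 5.72 and 5.51 in SHRSP at 6 weeks. WKY was below both other strains without overlap at 3 weeks and, by less, at 6 weeks. Tnfrsf11b, the decoy receptor osteoprotegerin, had an interaction of -1.06 ± 0.14 (adjusted p 0.000153), a rise of 1.95 in WKY and a change of 0.88 in the others, and for gene Tnfrsf11b the other scalings gave -0.91 to -0.97, normexp correction -0.80 and -0.92 and SHR alone -0.91, all under the fold limit. Sds, the serine dehydratase that feeds amino acids into glucose production, rose at least 11.5-fold in WKY, where 0 of 3 arrays at 3 weeks were well above background. Fitted against that group, its interaction was -2.14 ± 0.22, or -0.48 for SHR and -3.81 for SHRSP, and none of these is a bound. For gene Sds the call ended with SHR alone, with SHR and SHRSP of an age as 1 group (adjusted p 0.117), and with normexp correction at -0.84 and -0.96.

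Transport of solutes by the proximal tubule was represented by 50 tested genes, of which 3 were lower (6%) and 0 higher by limma, with 7 genes at an unadjusted p under 0.05 in the higher direction, and the median was -0.041. In WKY 4 of these genes rose and 1 fell, and in the hypertensive strains 1 rose and 1 fell. Over all 20749 tested probes 611 rose and 158 fell in WKY, and 306 rose and 409 fell in the hypertensive strains. The lower genes were Slco1a1, Slc22a2 and Abcb1a. For the reason given below the test of Abcb1a is not counted, which leaves Slco1a1 and Slc22a2. Slc22a2, the basolateral organic cation transporter, had a level of 1.30, 1.59 and 1.67 in WKY at 3 weeks, 2.27, 2.61 and 2.59 in SHR at 3 weeks, 2.90, 3.33 and 2.73 in SHRSP at 3 weeks, 3.14, 3.07 and 3.41 in WKY at 6 weeks, 3.22, 3.24 and 3.32 in SHR at 6 weeks, and 3.44, 3.20 and 3.25 in SHRSP at 6 weeks. At 3 weeks WKY lay lowest without overlap, and at 6 weeks the groups overlapped. It rose 3.22-fold in WKY and changed by 0.54 in the hypertensive strains, an interaction of -1.15 ± 0.18 (adjusted p 0.000551) with slide-adjusted estimates of -0.99, -1.32 and -0.94. The value for gene Slc22a2 was -0.999 with scaling by the median, just under the fold limit, -0.93 with normexp and quantile normalization, and -0.92 for SHR alone. Abcb1a, the drug efflux pump P-glycoprotein, had a fitted interaction of -1.004 ± 0.20, which is no bound, and slide-adjusted estimates of 0.024, -0.23 and -0.71. It was well above background on 8 of 18 arrays and on none of WKY at 3 weeks. Only in WKY at 6 weeks and SHRSP at 3 weeks were all 3 arrays well above background. Abcb1a was thus tested only through groups where it is high, so its p is not given. Gene Abcb1a gave -0.39 and -0.46 with normexp correction, -0.75 to -0.91 with other scalings, -0.94 with a floor under low signals, -0.87 with scan day in the fit and -0.41 with SHR alone. Leaving out any 1 of 7 arrays ended its call, at -0.92 to -0.96: WKY 3-week replicate 1, SHR 3-week replicate 2, SHRSP 3-week replicate 3, WKY 6-week replicates 1 and 3, SHR 6-week replicate 3 and SHRSP 6-week replicate 2.

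Transport of sodium, potassium and water had 45 tested genes, with 3 lower (6.67%), 0 higher by limma and 5 at an unadjusted p under 0.05 in the higher direction, and a median of -0.050. Sgk1, the aldosterone-induced kinase that raises sodium uptake in the distal nephron, was among them (probe A_44_P313542, chr1:23501718-23501777). Its level was -0.14, 0.15 and 0.42 in WKY at 3 weeks, 1.90, 1.84 and 1.92 in SHR at 3 weeks, 1.36, 0.73 and 1.1 in SHRSP at 3 weeks, -0.23, 0.070 and 0.69 in WKY at 6 weeks, 1.52, 1.12 and 1.42 in SHR at 6 weeks, and -0.45, -0.24 and -0.69 in SHRSP at 6 weeks. SHR was the highest at both ages without overlap, and SHRSP lay above WKY at 3 weeks and below it at 6 weeks. Sgk1 fell by 1.03 with age in the hypertensive strains and changed by 0.038 in WKY, an interaction of -1.07 ± 0.26 (adjusted p 0.0109) with slide-adjusted estimates of -1.04, -1.02 and -1.07. Gene Sgk1 lost the call under other scalings at -0.92 to -0.97, with normexp correction at -0.67 and -0.76, with SHR and SHRSP of an age as 1 group (adjusted p 0.304), with SHR alone at -0.57, and without WKY 3-week replicate 1 (-0.93), SHRSP 3-week replicate 1 (-0.99) or WKY 6-week replicate 3 (-0.81).

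Slc9a3, the sodium-hydrogen exchanger of the proximal tubule, and Kcnma1, the large-conductance potassium channel, were the other lower genes of that list. Slc9a3 had a level of -3.33, -3.54 and -3.35 in WKY at 3 weeks, -3.43, -2.73 and -2.84 in SHR at 3 weeks, -2.82, -2.67 and -1.95 in SHRSP at 3 weeks, -2.44, -2.67 and -2.75 in WKY at 6 weeks, -3.30, -3.34 and -3.68 in SHR at 6 weeks, and -3.74, -3.61 and -3.63 in SHRSP at 6 weeks. Summed from the slide steps within SHR and within SHRSP at 3 weeks, its signal was higher on slide 3 than on slide 1 by 1.44. That sum rests on SHR 3-week replicate 1 alone for slide 1 and on SHRSP 3-week replicate 3 alone for slide 3. Slc9a3 had an interaction of -1.60 ± 0.25 (adjusted p 0.000553). Its slide-adjusted estimates were 0.51, -0.14 and -0.93, and another probe of Slc9a3 gave -0.22 with an adjusted p of 0.425. Kcnma1 had an interaction of -1.21 ± 0.25 (adjusted p 0.00399) and slide-adjusted estimates of 0.55, 0.015 and -0.65. Gene Kcnma1 lost the call with normexp correction at -0.86 and -0.96, with SHR alone at -0.78 and with gene names in place of probes at -0.62, and gene Slc9a3 with gene names at -0.91. Among genes of the list under the fold limit, Wnk4, a kinase that regulates distal sodium transport, had -0.93 ± 0.19 (adjusted p 0.00386), and Aqp3, a water channel of the collecting duct, had 0.62 ± 0.11 (adjusted p 0.00105).

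The angiotensin and kinin list held 21 tested genes, of which 1 was higher (4.76%) and 2 were lower (9.52%), with a median of -0.18. At any size 2 were higher (9.52%) and 7 lower (33.3%) by adjusted p, beside 3.22% and 12.8% of all tested probes with a symbol. The 2 higher were Agt and Agtrap, and in both the labelled SHR and SHRSP changes relative to WKY had opposite signs. For Agtrap they were -4.45 and 5.61. The precursor of angiotensin rose more in SHR and SHRSP pooled, while Kng1 and Kng2, kininogens from which kinins are released, ended lower there than in WKY.

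Agt encodes angiotensinogen, the precursor of angiotensin (probe A_64_P154849, chr19:54738614-54738673). Its level was -0.67, -1.14 and -1.17 in WKY at 3 weeks, -2.35, -2.26 and -2.29 in SHR at 3 weeks, -0.41, 0.38 and -0.19 in SHRSP at 3 weeks, 0.26, -0.32 and 0.074 in WKY at 6 weeks, 1.74, 1.55 and 1.73 in SHR at 6 weeks, and 0.39, 0.46 and 0.46 in SHRSP at 6 weeks. At 6 weeks WKY was below both other strains without overlap, and at 3 weeks the labelled SHR arrays were lowest and the SHRSP arrays highest. Agt rose 4.72-fold with age in SHR and SHRSP pooled and changed by 0.99 in WKY, an interaction of 1.25 ± 0.22 (adjusted p 0.00146) with slide-adjusted estimates of 1.18, 1.11 and 1.28. The labelled strains differed: 2.98 for SHR and -0.49 for SHRSP (adjusted p of the difference 2.03e-07). With SHR and SHRSP of an age treated as 1 group, the adjusted p for gene Agt was 0.33, since the spread between the labelled strains then enters the error.

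Kng2, a kininogen that the array names Kng1, had a level of -3.44, -3.92 and -3.35 in WKY at 3 weeks, -4.09, -4.30 and -4.11 in SHR at 3 weeks, -4.44, -4.69 and -4.46 in SHRSP at 3 weeks, -3.62, -3.24 and -2.95 in WKY at 6 weeks, -5.47, -5.35 and -5.24 in SHR at 6 weeks, and -4.69, -5.13 and -4.93 in SHRSP at 6 weeks. WKY lay above both other strains at 3 and at 6 weeks without overlap, and the difference went from -0.78 to -1.87. Its interaction was -1.09 ± 0.21 (adjusted p 0.0024), with slide-adjusted estimates of -1.18, -1.07 and -1.17. Gene Kng2 lost the call under other scalings at -0.90 to -0.99, with normexp correction at -0.60 and -0.72, with scan day in the fit at -0.96, with SHRSP alone at -0.69, and without WKY 3-week replicate 2 (-0.91) or WKY 6-week replicate 3 (-0.93). Kng1, its neighbour on chromosome 11 that the array names Kng1l1, had a level of -5.26, -5.65 and -5.61 in WKY at 3 weeks, -5.29, -6.16 and -5.82 in SHR at 3 weeks, -6.15, -6.48 and -5.74 in SHRSP at 3 weeks, -5.26, -5.20 and -4.78 in WKY at 6 weeks, -6.71, -6.86 and -6.99 in SHR at 6 weeks, and -6.51, -6.52 and -6.77 in SHRSP at 6 weeks. The groups overlapped at 3 weeks and not at 6 weeks, when WKY was higher. Its interaction was -1.21 ± 0.26 (adjusted p 0.00496), and gene Kng1 gave -0.38 and -0.44 with normexp correction, -0.998 with quantile normalization and -0.91 with SHRSP alone. Kng2l1, another kininogen that the array names Kng2, is outside the list and was chosen after its values were seen. It was well above background on 6 arrays, the 3 of SHRSP at 3 weeks and the 3 of SHR at 6 weeks, and its interaction of 0.85 ± 0.40 was in the other direction and did not pass (adjusted p 0.154). Klkb1, plasma kallikrein, which releases kinins, was chosen after its values were seen. Its level was -5.97, -6.51 and -6.19 in WKY at 3 weeks, -6.23, -6.62 and -6.49 in SHR at 3 weeks, -5.81, -5.997 and -5.76 in SHRSP at 3 weeks, -5.73, -5.82 and -5.71 in WKY at 6 weeks, -7.11, -6.83 and -6.82 in SHR at 6 weeks, and -7.19, -7.47 and -7.32 in SHRSP at 6 weeks, well above background on 13 arrays and on 0 of 3 in SHRSP at 6 weeks. At 6 weeks WKY was above the others without overlap, and the fitted interaction was -1.44 ± 0.16 (adjusted p 5.81e-05), or -0.38 and -0.39 for gene Klkb1 with normexp correction and -0.94 with SHR alone.

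Bdkrb2, the bradykinin receptor, had an interaction of -0.83 ± 0.20 (adjusted p 0.00907) and slide-adjusted estimates of -0.0013, -0.48 and -0.44, and the angiotensin receptor Agtr1a had -0.28 ± 0.089 (adjusted p 0.041). Ace, the converting enzyme, had -0.45 ± 0.16, which did not pass (adjusted p 0.061).

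Vitamin D, calcium and phosphate were represented by 21 tested genes, of which 1 was higher (4.76%) and 0 lower by limma, with 3 at an unadjusted p under 0.05 in the lower direction, and the median was -0.016. The gene was Cyp24a1, the hydroxylase that degrades vitamin D (probe A_44_P235892, chr3:161540181-161540240). Its level was -3.24, -3.32 and -2.90 in WKY at 3 weeks, -3.74, -2.85 and -3.83 in SHR at 3 weeks, -3.07, -2.82 and -3.01 in SHRSP at 3 weeks, -4.65, -4.97 and -4.48 in WKY at 6 weeks, -2.62, -2.62 and -2.41 in SHR at 6 weeks, and -3.06, -2.69 and -3.29 in SHRSP at 6 weeks. The groups overlapped at 3 weeks, and at 6 weeks every WKY array lay below every array of SHR and SHRSP. Cyp24a1 fell by 1.55 in WKY and changed by 0.44 in the hypertensive strains, an interaction of 1.98 ± 0.27 (adjusted p 0.000198), with slide-adjusted estimates of 2.63, 2.24 and 2.30. Another probe of Cyp24a1 gave 1.60, fitted against WKY at 6 weeks where it was well above background on 0 of 3 arrays, so that value is no bound. Under the fold limit, Trpv5, the calcium channel of the distal tubule, had 0.93 ± 0.16 (adjusted p 0.00138), and its level was -4.10, -4.28 and -3.61 in WKY at 3 weeks, -4.97, -5.002 and -5.28 in SHR at 3 weeks, -4.15, -4.43 and -4.27 in SHRSP at 3 weeks, -4.08, -4.09 and -4.05 in WKY at 6 weeks, -3.67, -3.79 and -3.65 in SHR at 6 weeks, and -3.93, -3.92 and -3.99 in SHRSP at 6 weeks. The labelled SHR arrays of 3 weeks were the lowest, and at 6 weeks WKY lay below both other strains without overlap. Cyp27b1, which activates vitamin D, had -0.14 ± 0.18 and did not pass (adjusted p 0.639).

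Exaggerated rises with age were fewer. They included steroid and bile acid enzymes best known from the liver, olfactory receptors of unknown role in the kidney, and unnamed transcripts. Cyp2c11 is the male-type steroid hydroxylase of rat liver (probe A_44_P280786, chr1:243320626-243320685). Its level was -5.05, -5.30 and -5.39 in WKY at 3 weeks, -5.94, -5.54 and -6.37 in SHR at 3 weeks, -4.89, -4.53 and -3.61 in SHRSP at 3 weeks, -0.81, -2.89 and -1.53 in WKY at 6 weeks, 1.88, 1.07 and 1.13 in SHR at 6 weeks, and 0.77, 1.35 and 0.74 in SHRSP at 6 weeks. At 6 weeks all WKY arrays lay below all SHR and SHRSP arrays, while at 3 weeks WKY lay between the labelled SHR and SHRSP. It rose 11.3-fold in WKY and 79.1-fold in the hypertensive strains, an interaction of 2.80 ± 0.53 (adjusted p 0.00219) with slide-adjusted estimates of 4.05, 4.07 and 2.97. With SHRSP alone gene Cyp2c11 gave 1.79 and an adjusted p of 0.0645.

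Cyp8b1, a sterol hydroxylase of bile acid synthesis, was well above background on 0 of 6 WKY arrays, on 1 of 3 SHR arrays at 3 weeks and on all 9 of the other hypertensive arrays. Its level was -9.30, -9.09 and -9.29 in WKY at 3 weeks, -7.33, -7.15 and -6.49 in SHR at 3 weeks, -5.61, -5.67 and -5.90 in SHRSP at 3 weeks, -8.08, -8.80 and -7.46 in WKY at 6 weeks, -2.88, -3.22 and -2.82 in SHR at 6 weeks, and -2.76, -2.90 and -2.68 in SHRSP at 6 weeks. SHR and SHRSP were above WKY at both ages without overlap, at least 1.6-fold at 3 weeks and at least 17.9-fold at 6 weeks. It was tested only through groups where it is high, so its p is not given, and its fitted interaction of 2.36 ± 0.32 is no bound. Or10u3 and Or10d5j are olfactory receptors that were dim on the 3-week arrays and were likewise tested only through groups where they are high. Or10u3 rose at least 2.7-fold with age in the hypertensive strains and was well above background on 5 arrays, all of them 6-week SHR or SHRSP. Or10d5j rose at least 10.1-fold there and at least 1.55-fold in WKY, and was well above background on 8 arrays. With normexp correction the value of gene Or10u3 was 0.57 or 0.71, under the fold limit.

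Other higher genes of this kind changed less. Ky, a muscle protein named for kyphoscoliosis, had 1.01 ± 0.12 (adjusted p 5.81e-05). Another probe of Ky gave 1.54, fitted against SHRSP at 3 weeks where it was well above background on 0 of 3 arrays, so that value is no bound. Gene Ky gave 0.60 and 0.45 with normexp correction, 0.995 with slide as a random block and 0.60 with SHR alone. For gene Ky the call ended without any 1 of 8 arrays, at 0.956 to 0.996: WKY 3-week replicates 2 and 3, SHR 3-week replicate 1, SHRSP 3-week replicate 2, WKY 6-week replicate 3, SHR 6-week replicates 1 and 3 and SHRSP 6-week replicate 1. Entrep1, named Fam189a2 on the array, had 1.16 ± 0.38 (adjusted p 0.0453), and its level was -5.95, -6.29 and -5.997 in WKY at 3 weeks, -6.34, -5.95 and -6.05 in SHR at 3 weeks, -6.30, -6.01 and -6.04 in SHRSP at 3 weeks, -5.94, -6.36 and -5.99 in WKY at 6 weeks, -5.37, -4.16 and -3.48 in SHR at 6 weeks, and -5.48, -5.63 and -5.68 in SHRSP at 6 weeks. Within SHR at 6 weeks its arrays ranged widely, and for gene Entrep1 the call ended without any 1 of 17 arrays, all but SHR 6-week replicate 1, at 0.95 to 1.27, and also with normexp correction at 0.80 and 0.79, with SHRSP alone at 0.54, with SHR and SHRSP of an age as 1 group (adjusted p 0.158), with scan day in the fit (adjusted p 0.0896) and with either other filter on dim probes (adjusted p 0.0772 and 0.0517).

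Several transcripts without a gene symbol rose more in SHR and SHRSP on chromosome 17, between Gtpbp4 and Wdr37. The array carries 18 probes in this interval, of which 8 were tested, 4 were called higher and 0 lower, with 0 lower also at an unadjusted p under 0.05 by limma, beside 0.222% higher over all tested probes. The interval was set around probes whose values had been seen, so its share of calls is no measure of enrichment. Of the 4, A_64_P046733 and A_64_P146053 were tested only through groups where they are high and their tests are not counted, which leaves A_64_P115786 and A_64_P040038. With A_64_P112729, 5 probes are shown. These 5 probes were chosen after their values were seen, and their sequences are shown because no gene symbol identifies them, from 5′ to 3′ as on the array.
A_64_P115786, chr17:72120754-72120813 in rn4: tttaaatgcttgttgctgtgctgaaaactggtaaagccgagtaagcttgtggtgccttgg
A_64_P146053, chr17:72184265-72184324 in rn4: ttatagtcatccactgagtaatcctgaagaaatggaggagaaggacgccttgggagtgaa
A_64_P046733, chr17:72193368-72193427 in rn4: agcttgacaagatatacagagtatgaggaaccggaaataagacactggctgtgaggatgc
A_64_P040038, chr17:72275008-72275067 in rn4: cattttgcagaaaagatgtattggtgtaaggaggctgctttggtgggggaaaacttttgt
A_64_P112729, chr17:72278347-72278406 in rn4: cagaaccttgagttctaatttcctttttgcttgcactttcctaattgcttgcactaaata

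A_64_P046733 was well above background on the 6 hypertensive arrays of 6 weeks and on 0 of the other 12. Its level was -9.23, -9.03 and -9.24 in WKY at 3 weeks, -7.76, -8.91 and -9.32 in SHR at 3 weeks, -9.13, -8.19 and -9.08 in SHRSP at 3 weeks, -9.29, -9.21 and -8.77 in WKY at 6 weeks, -4.10, -5.05 and -4.35 in SHR at 6 weeks, and -4.06, -4.06 and -4.29 in SHRSP at 6 weeks. It rose at least 6.25-fold with age in SHR and SHRSP and was at least 6.6-fold above WKY at 6 weeks, and its interaction of 4.34 ± 0.42, fitted against arrays at background, is no bound. It was tested only through the groups where it is high, so its p is not given. A_64_P146053, annotated to the same transcript, was well above background on 5 of these 6 arrays and was at least 2.21-fold above WKY at 6 weeks, with an interaction, likewise fitted against background, of 3.14 ± 0.29, or 0.71 and 0.85 for gene A_64_P146053 with normexp correction. Their slide-adjusted estimates were 1.37, 2.73 and 3.14 for the former and 2.74, 3.02 and 2.93 for the latter.

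A_64_P115786 was well above background on all 18 arrays, so its level needs no bound. Its level was -1.50, -1.57 and -1.47 in WKY at 3 weeks, -1.59, -1.44 and -1.53 in SHR at 3 weeks, -1.58, -1.27 and -1.08 in SHRSP at 3 weeks, -0.87, -1.04 and -0.77 in WKY at 6 weeks, 1.45, 0.62 and 1.1 in SHR at 6 weeks, and 1.66, 1.77 and 1.55 in SHRSP at 6 weeks. The strains overlapped at 3 weeks, and at 6 weeks all hypertensive arrays were above all WKY arrays. A_64_P040038 gave 2.25 ± 0.18 beside 2.15 ± 0.20 for A_64_P115786, with a level of -1.41, -1.44 and -1.34 in WKY at 3 weeks, -1.57, -1.54 and -1.47 in SHR at 3 weeks, -1.51, -1.18 and -1.18 in SHRSP at 3 weeks, -0.99, -1.10 and -0.86 in WKY at 6 weeks, 1.26, 0.51 and 0.97 in SHR at 6 weeks, and 1.64, 1.67 and 1.47 in SHRSP at 6 weeks. Here too the hypertensive arrays of 6 weeks were above all others. A_64_P112729 had 0.84 ± 0.16 (adjusted p 0.00199), under the fold limit. A_64_P022559, annotated to the same transcript as A_64_P040038, had 0.18 ± 0.17 and did not pass. Among the other tested neighbours, A_64_P100661 had 0.20 ± 0.12, Gtpbp4, a nucleolar GTPase, had 0.0023 ± 0.18, Idi1, an enzyme of isoprenoid synthesis, had 0.33 ± 0.13, and Wdr37 had -0.29 ± 0.10, none of which passed.

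**Figure D3:**
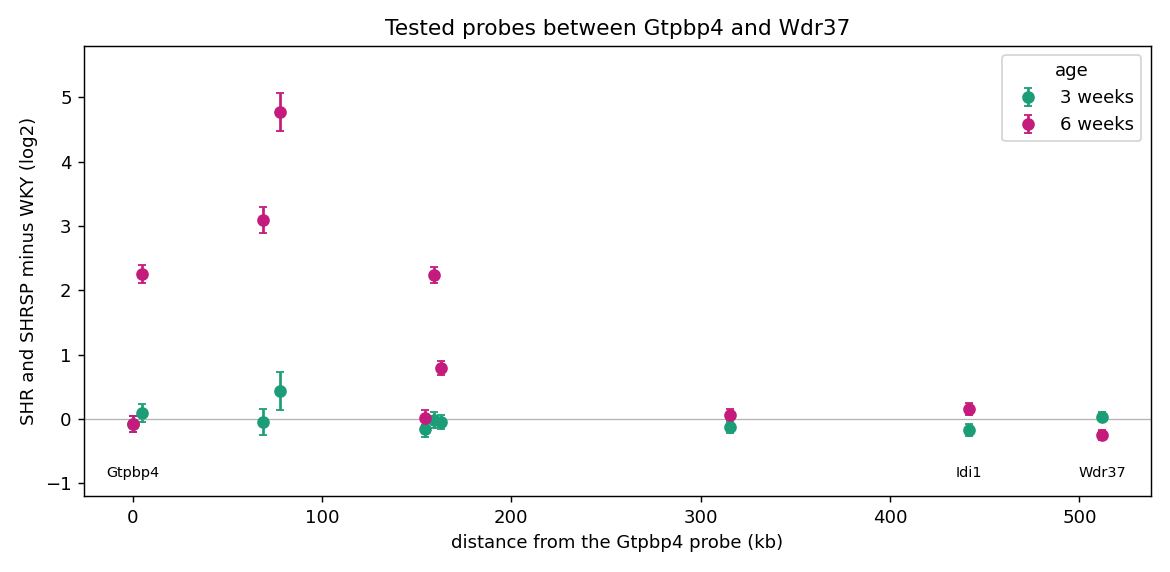
Horizontally, distance in kb from the Gtpbp4 probe; vertically, the difference of SHR and SHRSP from WKY (log2) at 3 weeks (green) and 6 weeks (pink) for each tested probe, with bars for the standard error. At 3 weeks the probes lie near 0, and at 6 weeks 4 of them stand above 2.

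Many lower calls moved with the slides as well as with strain and age. Of the 823 lower probes 533, or 64.8%, had no gene symbol, beside 27.8% of all tested probes, and 9.47% of the tested probes without a symbol were called against 2.16% of those with one. No 3-week hypertensive group lay on both slide 1 and slide 3. Their difference was therefore summed from slide 2 minus slide 1 within SHR and slide 3 minus slide 2 within SHRSP. It rests on SHR 3-week replicate 1 alone for slide 1. For slide 3 it rests on SHRSP 3-week replicate 3 alone, which stood apart in the principal component analysis. The median of this sum was 1.06 for the unnamed lower probes, 0.19 for all tested probes without a symbol and 0.071 for those with one. The unnamed lower probes had a median change with age of 0.77 in WKY, whose 3-week arrays lay on slide 1 and 6-week arrays on slide 3. For named lower probes these values were 0.75 and 0.72, and for the higher probes the slide differences were -0.082 without and -0.096 with a symbol. The part of the slides in the lower calls cannot be told apart from that of strain and age with these arrays.

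The mean of the unnamed lower probes shows this array by array. It was -3.75, -3.92 and -3.80 in WKY at 3 weeks, -3.86, -3.38 and -3.33 in SHR at 3 weeks, -3.50, -3.33 and -2.82 in SHRSP at 3 weeks, -2.88, -2.89 and -2.92 in WKY at 6 weeks, and between -4.01 and -4.17 on the 6 hypertensive arrays of 6 weeks. SHR 3-week replicate 1 on slide 1 lay with WKY of that slide, and SHRSP 3-week replicate 3 on slide 3 lay with the 6-week WKY arrays of that slide. The interaction also differed with base composition: the median was -0.42 for the 392 probes with at most 20 G or C among their 60 bases, 0.0028 for the 6015 probes with 28 to 33, and -0.33 for the 414 probes with 34 or more. Most tested probes lay between the first and second of these bands and are not given. The median number of G or C was 26 for lower calls, 27 for higher calls and 27 for all tested probes. Without SHRSP 3-week replicates 2 and 3, a choice made after seeing the data, 655 probes were called, 630 of them among the 869. With probes that have a gene symbol alone, also chosen later, 314 were called, 282 of them lower.

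**Figure D4:**
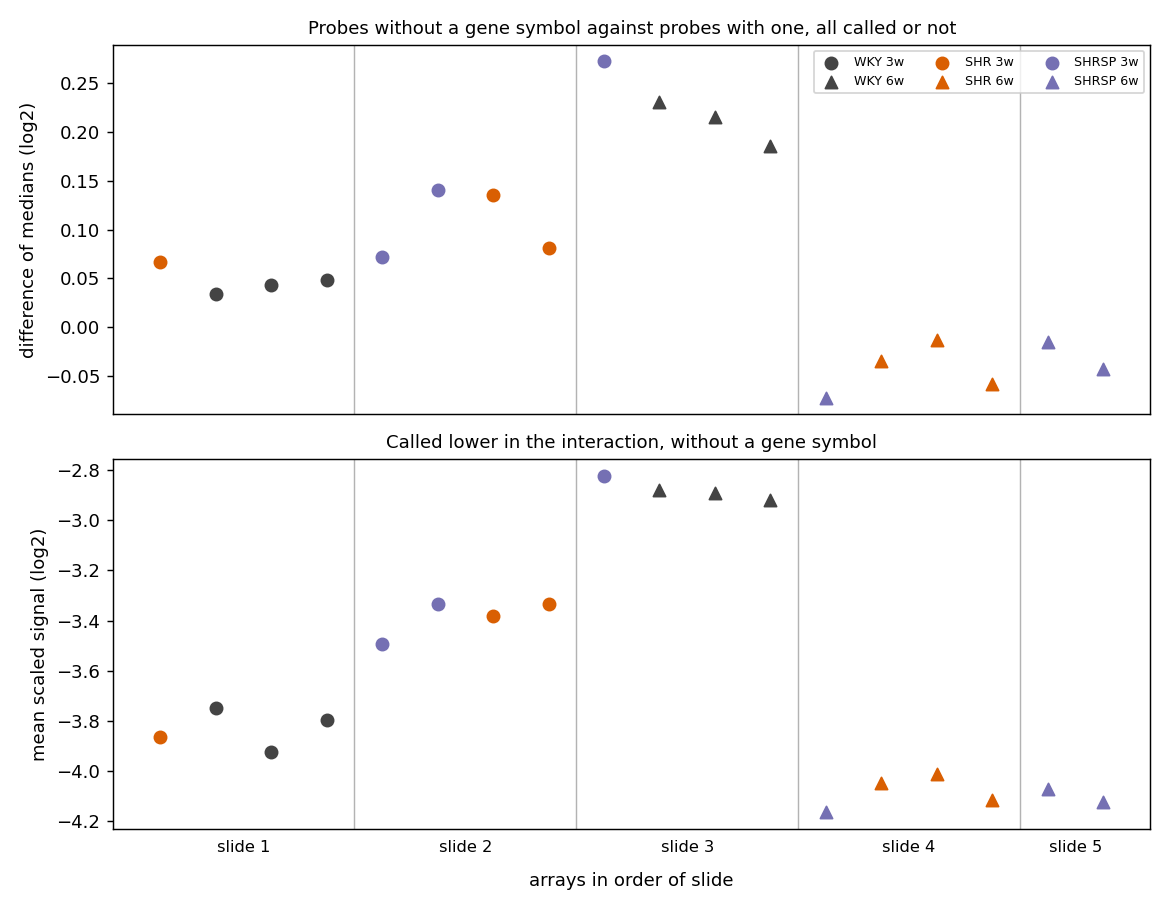
Arrays in order of slide on the horizontal axis; above, the median log2 signal of probes without a gene symbol minus that of probes with one, and below, the mean log2 signal of lower-called probes without a symbol. Colours mark the strain and shapes the age; arrays of slide 3 stand highest whether they hold SHRSP at 3 weeks or WKY at 6 weeks.

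Gclm, the modifier subunit of the enzyme that begins glutathione synthesis, is a named example. Its level was -4.02, -4.19 and -4.16 in WKY at 3 weeks, -4.15, -3.27 and -3.26 in SHR at 3 weeks, -3.08, -3.37 and -2.07 in SHRSP at 3 weeks, -2.005, -2.20 and -2.19 in WKY at 6 weeks, -3.48, -3.71 and -3.75 in SHR at 6 weeks, and -3.95, -3.80 and -3.81 in SHRSP at 6 weeks. Within SHR and SHRSP at 3 weeks the array on slide 1 was the lowest and that on slide 3 the highest. Its interaction was -2.54 ± 0.33 (adjusted p 0.000135), and the slide-adjusted estimates were 0.44, -0.45 and -1.61, so the sign depends on the level given to slides 4 and 5. The same holds for Cdk11b, a cyclin-dependent kinase, with -2.84 ± 0.33 and slide-adjusted 0.018, -1.12 and -1.78. Btnl3, a butyrophilin-like protein, had -1.96 ± 0.27 and 0.15, -0.60 and -1.23. Pbp2 had -1.80 ± 0.21 and 0.0018, -0.82 and -1.08. Cdk11b was well above background on 4 arrays and tested only through WKY at 6 weeks, so its fitted value is no bound, and with a floor under low signals gene Cdk11b gave -0.87, with normexp correction -0.46 and -0.53, and gene Pbp2 gave -0.81 and -0.92 with the latter.

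Pseudogene probes were among the most negative as well. C1galt1c1-ps1 had -4.57 ± 0.62 and slide-adjusted -0.62, -1.38 and -3.57, with 4 arrays well above background. It was tested only through WKY at 6 weeks, where it is high, so this fitted value is no bound, and the bound on its rise in WKY was 2.55-fold. Rpl23a-ps6 had -2.48 ± 0.27 with -0.15, -0.75 and -1.80, and Rpl36al-ps5 had -2.03 ± 0.25 with -0.036, -0.52 and -1.46. Snx15, a sorting nexin, had -3.36 ± 0.32 with slide-adjusted -3.56, -3.36 and -3.50, which moved little with the slide level. It was well above background on 6 arrays, the bound on its rise in WKY was 1.09-fold, and with the same floor gene Snx15 gave -0.22, and with normexp correction -0.35 and -0.43. Ldlrad2 had -1.99 ± 0.25 (adjusted p 0.000115) and slide-adjusted -1.36, -1.70 and -1.71.

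In 2 more genes, chosen after their values were seen, the rise of WKY had little counterpart in the hypertensive strains. Anxa13, a membrane-binding annexin of epithelia, was well above background only on the 3 WKY arrays of 6 weeks. Its level was -8.98, -8.80 and -9.03 in WKY at 3 weeks, -8.65, -8.75 and -9.15 in SHR at 3 weeks, -8.97, -9.25 and -9.07 in SHRSP at 3 weeks, -4.84, -6.74 and -5.68 in WKY at 6 weeks, -8.77, -7.91 and -8.89 in SHR at 6 weeks, and -8.88, -8.47 and -8.74 in SHRSP at 6 weeks. It rose at least 2.43-fold with age in WKY and was at least 2.16-fold lower in SHR and SHRSP than in WKY at 6 weeks, and these bounds are what its values support. It was tested only through the group where it is high, so its p is not given. Fitted against arrays at background in the other 5 groups, its interaction was -2.82 ± 0.43, which is no bound, and -0.68 and -0.70 for gene Anxa13 with normexp correction. Ugt2b15, an androgen glucuronosyltransferase that the array names Ugt2b5, had a level of -5.06, -5.08 and -4.95 in WKY at 3 weeks, -4.49, -4.68 and -4.45 in SHR at 3 weeks, -5.35, -5.22 and -5.33 in SHRSP at 3 weeks, -3.92, -3.55 and -3.83 in WKY at 6 weeks, -5.23, -4.89 and -5.47 in SHR at 6 weeks, and -5.24, -4.92 and -4.97 in SHRSP at 6 weeks. At 6 weeks WKY was above both other strains without overlap. It rose 2.4-fold in WKY and changed by -0.20 in the others, with an interaction of -1.46 ± 0.17 (adjusted p 5.27e-05) and slide-adjusted estimates of -1.65, -1.58 and -1.53.

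Immediate early and clock genes had medians below that of all probes. Under the alternatives tried, the median of the immediate early genes went as high as 0.0059, with normexp correction and quantile normalization, and that of the clock genes as high as 0.024, with SHR alone. The 28 tested immediate early genes had 3 lower (10.7%), 0 higher by limma and 1 higher at an unadjusted p under 0.05, with a median of -0.24. With age 6 of these 28 genes fell in the hypertensive strains, beside 409 of all 20749 tested probes. Zfp36, which destabilises messenger RNA, had -1.86 ± 0.32 (adjusted p 0.00104) and slide-adjusted -0.37, -0.76 and -1.43. Its level was -5.38, -5.41 and -4.93 in WKY at 3 weeks, -4.30, -3.96 and -3.85 in SHR at 3 weeks, -4.20, -4.25 and -3.56 in SHRSP at 3 weeks, -4.56, -4.54 and -4.72 in WKY at 6 weeks, -5.21, -4.996 and -4.41 in SHR at 6 weeks, and -5.31, -6.23 and -5.33 in SHRSP at 6 weeks. The 3-week hypertensive arrays were above all the others. Ccn2, connective tissue growth factor, had -1.35 ± 0.25 (adjusted p 0.00174) and slide-adjusted 0.18, -0.33 and -0.83, and Btg2, an antiproliferative factor, had -1.06 ± 0.17 and -0.17, -0.56 and -0.71. Gene Zfp36 gave -0.99 with 1 form of normexp correction, and for gene Ccn2 the adjusted p was 0.168 with SHR and SHRSP of an age as 1 group. Gene Btg2 lost the call without SHR 3-week replicate 2, at -0.98, under other scalings at -0.91 to -0.96, with 1 form of normexp correction at -0.96, with scan day in the fit at -0.99 and with SHR alone at -0.75.

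Of 19 tested clock genes, 1 was lower (5.26%) and 0 higher by limma, with 2 higher at an unadjusted p under 0.05, and the median was -0.20. Per1, a repressor of the clock, had -1.01 ± 0.22 (adjusted p 0.00541) and slide-adjusted -0.13, -0.49 and -0.68, and gene Per1 lost the call without any 1 of 7 arrays, at -0.90 to -0.99: WKY 3-week replicate 2, SHR 3-week replicate 2, SHRSP 3-week replicate 3, WKY 6-week replicates 1 and 2, SHR 6-week replicate 3 and SHRSP 6-week replicate 1. Gene Per1 gave -0.19 and -0.24 with normexp correction and -0.74 to -0.92 with other scalings. Dbp, an output factor of the clock, had 0.94 ± 0.18 (adjusted p 0.00248) in the other direction, under the fold limit. The part of the time of day was not tested. RefSeq (GRCr8) held 19 promoters of clock genes, each from 250 bases before to 50 after the start: the E-box CACGTG, searched on both strands, was in 5 of them (26.3%; Bhlhe40, Bhlhe41, Ciart, Nr1d1 and Tef) beside 6.42% of 33469 promoters, and the D-box TTATGTAA in 1 of 19 (5.26%; Per2) beside 0.893%. Per1 was not among those with either motif in this window. Noct, a deadenylase with a daily rhythm, had -1.80 ± 0.16 (adjusted p 8.21e-06) with slide-adjusted -0.65, -1.01 and -1.43.

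Growth, matrix and energy metabolism lists held no call with all 18 arrays. Leaving out 1 array gave a call for 3 of the 18 arrays in the growth and imprinted list, for 4 in cholesterol synthesis and for 5 in glucose and ammonia metabolism, so these zeros depend on single arrays. With SHRSP alone the cell cycle list had 5 calls and fatty acid oxidation 3. A total of 8 pathway lists with 261 tested genes had 0 calls by limma, with 34 genes higher and 40 lower at an unadjusted p under 0.05, and interactions between -0.97 and 0.82. Cell cycle genes had the highest median of the pathway lists, 0.31 over 39 genes beside -0.10 over all probes, with 8 higher (20.5%) and 1 lower (2.56%) by adjusted p at any size, beside 3.22% and 12.8% of tested probes with a symbol. The median of the list cell cycle was 0.13 and 0.54 with SHR alone and with SHRSP alone. Ccnb1, the mitotic cyclin, had 0.81 ± 0.17 (adjusted p 0.00496), and its level was -3.40, -3.69 and -3.14 in WKY at 3 weeks, -3.92, -3.73 and -3.66 in SHR at 3 weeks, -4.31, -4.52 and -4.68 in SHRSP at 3 weeks, -2.82, -3.08 and -2.87 in WKY at 6 weeks, -3.02, -2.69 and -2.96 in SHR at 6 weeks, and -2.90, -2.85 and -2.61 in SHRSP at 6 weeks. At 3 weeks the labelled SHRSP arrays lay below the others while WKY and SHR overlapped, and at 6 weeks the groups overlapped. Kif20a, a kinesin of cytokinesis, had 0.82 ± 0.18 (adjusted p 0.00501), and Mcm6, a subunit of the replicative helicase, had 0.74 ± 0.24 (adjusted p 0.0397).

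The other medians were -0.13 for the 40 extracellular matrix genes, -0.12 for 25 growth and imprinted genes, 0.0017 for 46 genes of fatty acid oxidation, 0.041 for 25 of cholesterol synthesis, -0.10 for 29 of glucose and ammonia metabolism, 0.11 for 27 of stress and kidney injury and -0.052 for 30 of the interferon response. Several of these moved when SHR or SHRSP was taken alone: to 0.31 and -0.44 for the list stress and kidney injury, 0.024 and -0.12 for the list growth and imprinted genes and 0.092 and -0.10 for the list fatty acid oxidation and PPAR targets. In each list without a call the gene with the highest mean signal was taken by rule, whatever its value.

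Igtp, an interferon-induced GTPase, had -0.75 ± 0.13 (adjusted p 0.00102), the single gene of those 8 that passed at any size. Sparc, a matrix glycoprotein, had 0.12 ± 0.15 (adjusted p 0.636), Gnas, an imprinted G protein subunit, -0.032 ± 0.11 (adjusted p 0.87) and Hadh, a dehydrogenase of fatty acid oxidation, -0.12 ± 0.088 (adjusted p 0.362). Msmo1, of sterol synthesis, had 0.14 ± 0.12 (adjusted p 0.442) and Fbp1, of glucose production, -0.039 ± 0.084 (adjusted p 0.779). Hspa8, a heat shock protein, had 0.21 ± 0.11 (adjusted p 0.212), and Rrm2, a subunit of ribonucleotide reductase, 0.42 ± 0.19 (adjusted p 0.137).

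Other members of these lists were chosen after their values were seen, because they passed at any size. Igfbp7, a binding protein of insulin-like growth factors, had -0.97 ± 0.14 (adjusted p 0.00035). Fdft1, squalene synthase, had -0.97 ± 0.19 (adjusted p 0.00237), and Txnip, a redox regulator of glucose uptake, had -0.96 ± 0.19 (adjusted p 0.00326). Havcr1, the injury marker KIM-1, had -0.86 ± 0.21 (adjusted p 0.00993), and Hspa5, a chaperone of the endoplasmic reticulum, had 0.65 ± 0.10 (adjusted p 0.000472). Ccnb1, Kif20a and Mcm6 were chosen in the same way, and Bdkrb2, Agtr1a, Ace, Trpv5, Cyp27b1, Wnk4, Aqp3, Dbp, Cyp4a3 and Cyp4a8 were chosen from lists with calls, for their role, with their values known.

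**Figure D5:**
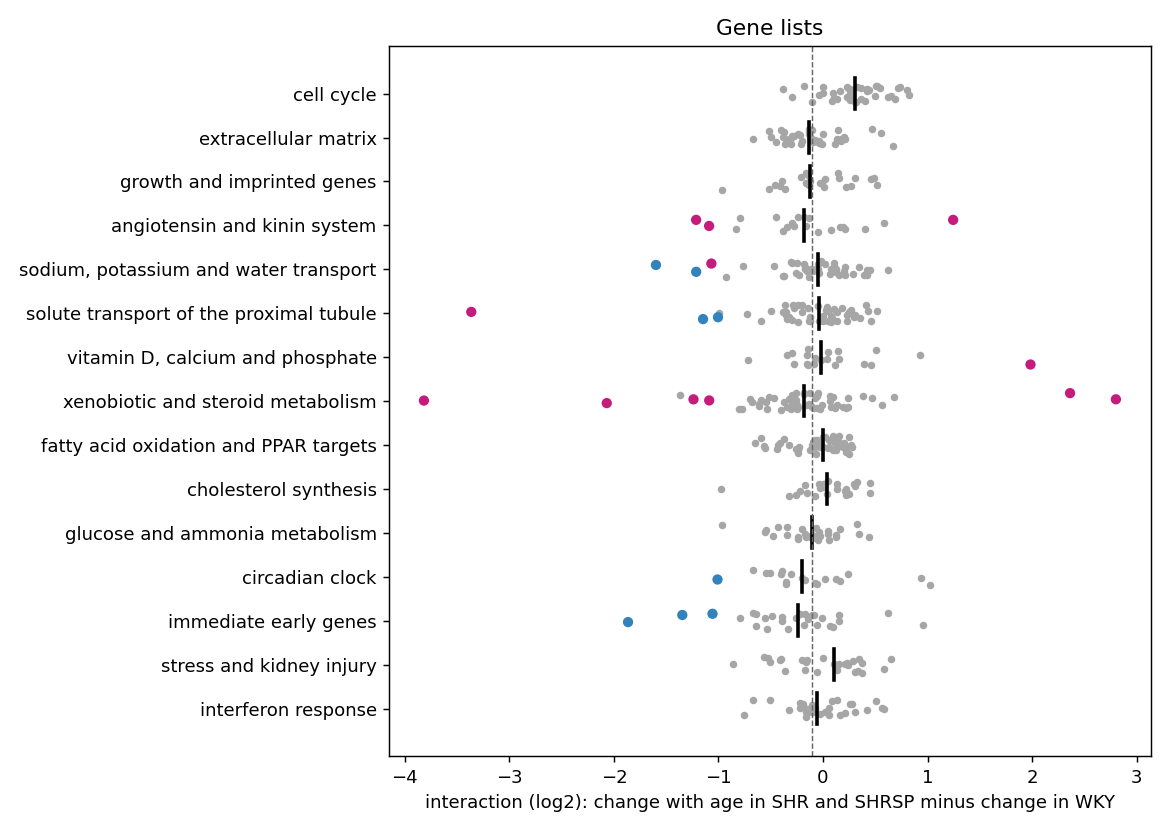
Each dot is a tested gene, placed by its interaction (log2) along the horizontal axis and by list along the vertical axis, with pink for called genes that kept over 2-fold in all 3 slide-adjusted fits, blue for other called genes and grey for the rest. Black bars are list medians and the dashed line is the median of all tested probes, -0.10; the cell cycle median lies to the right of it.

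Markers of kidney cell types were measured in every list, and none was called. The 9 kidney lists, with 51 tested genes, had 0 calls by limma, with 7 higher and 12 lower at an unadjusted p under 0.05, and interactions between -0.80 and 0.62. Their medians were -0.081 for podocytes, -0.024 for the proximal tubule, -0.17 for the thick ascending limb, -0.14 for the distal convoluted tubule, 0.42 for principal cells, -0.071 for intercalated cells, -0.16 for endothelium, -0.097 for stroma and 0.22 for nephron progenitors. Some of these medians turned sign between SHR alone and SHRSP alone: 0.22 and -0.41 for the list podocyte, 0.10 and -0.34 for the list distal convoluted tubule, 0.32 and -0.42 for the list intercalated cell and 0.072 and -0.41 for the list endothelium. In whole kidney RNA, fewer cells of a type and less RNA per cell cannot be told apart. For macrophages, red cells, fat and liver, 4 lists with 34 tested genes, the count was 0 by limma, with 1 higher and 2 lower at an unadjusted p under 0.05, and the medians were -0.089, 0.10, 0.79 and 0.011. Without WKY 6-week replicate 2 the list fat had 4 calls, and its median ran from 0.41 to 1.23 as single arrays were left out and was 0.14 with array weights. The median of the list red blood cell ran from -0.054 to 0.44 as single arrays were left out.

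Markers of neighbouring tissues gave single calls. Of 5 tested T and B lymphocyte markers Cd8b, a coreceptor of cytotoxic T cells, was lower with -1.01 ± 0.19 (slide-adjusted -0.033, -0.31 and -0.71), and gene Cd8b lost the call without any 1 of 9 arrays, at -0.926 to -0.997: WKY 3-week replicates 2 and 3, SHR 3-week replicates 2 and 3, SHRSP 3-week replicate 3, WKY 6-week replicates 1 and 3, SHR 6-week replicate 3 and SHRSP 6-week replicate 1. Gene Cd8b gave -0.33 and -0.38 with normexp correction, -0.76 to -0.92 with other scalings and -0.82 with SHR alone. The median of the list T and B lymphocyte was -0.67, and -0.065 with SHR alone and -0.97 with SHRSP alone, 8 of 15 markers were never well above background and the brightest probe was that of Pax5. Probes differ in affinity, so signals of different genes give no order of abundance and a sum weights bright probes. Summed over that list the signal was 0.752, 0.684 and 0.677 in WKY at 3 weeks, 0.569, 0.705 and 0.659 in SHR at 3 weeks, 0.571, 0.686 and 0.83 in SHRSP at 3 weeks, 0.757, 0.756 and 0.707 in WKY at 6 weeks, 0.592, 0.614 and 0.519 in SHR at 6 weeks, and 0.496, 0.641 and 0.58 in SHRSP at 6 weeks. The strains overlapped at 3 weeks, and at 6 weeks WKY lay above the others. Of 7 tested adrenal markers Th, which makes catecholamines, was lower with -1.07 ± 0.24 (slide-adjusted 0.92, 0.13 and -0.34), the median was -0.32, 5 of 16 were never well above background and the brightest probe was that of Th. The adrenal sum was 0.808, 0.722 and 0.706 in WKY at 3 weeks, 0.668, 0.947 and 0.965 in SHR at 3 weeks, 0.842, 1.00016 and 1.14 in SHRSP at 3 weeks, 1.02, 0.905 and 0.916 in WKY at 6 weeks, 0.722, 0.704 and 0.618 in SHR at 6 weeks, and 0.613, 0.74 and 0.696 in SHRSP at 6 weeks. Again the strains overlapped at 3 weeks, and at 6 weeks WKY lay above the others. Gene Th lost the call without WKY 3-week replicate 3 (-0.994) or SHRSP 3-week replicate 3 (-0.997), with normexp correction (-0.65 and -0.77), with other scalings (-0.93 to -0.98) and with SHR alone (-0.90). Of 4 tested skeletal muscle markers Acta1, skeletal actin, had -2.02 ± 0.45, fitted against WKY at 3 weeks where it was at background (slide-adjusted -0.48, -1.19 and -1.40). Only in WKY at 6 weeks and SHRSP at 3 weeks were all 3 arrays well above background for Acta1. It was thus tested only through groups where it is high, so its test is not counted. The median of the muscle list was -0.71, 3 of 11 were never well above background and the brightest probe was that of Mb. Gene Acta1 lost the call with normexp correction at -0.71 and -0.74 and with SHR alone (adjusted p 0.104). The muscle sum was 0.474, 0.475 and 0.623 in WKY at 3 weeks, 0.673, 0.781 and 0.618 in SHR at 3 weeks, 0.508, 0.735 and 0.805 in SHRSP at 3 weeks, 0.731, 0.715 and 0.704 in WKY at 6 weeks, 0.753, 0.781 and 0.665 in SHR at 6 weeks, and 0.658, 0.828 and 0.715 in SHRSP at 6 weeks, with overlap of the strains at both ages. The part of such tissue in the calls was not tested.

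Fat markers fell with age in both strain groups. Of 9 tested, 6 fell in WKY and 6 in SHR and SHRSP, with median changes of -2.72 and -2.004, and 2 of 12 were never well above background. Over all 20749 tested probes 158 fell in WKY and 409 in SHR and SHRSP. The summed signal of the list was 17.9982, 8.30 and 10.02 in WKY at 3 weeks, 12.9, 9.86 and 5.84 in SHR at 3 weeks, 7.79, 12.2 and 4.97 in SHRSP at 3 weeks, 1.17, 3.92 and 1.16 in WKY at 6 weeks, 2.04, 2.16 and 2.15 in SHR at 6 weeks, and 3.18, 1.61 and 1.58 in SHRSP at 6 weeks, with the Cidea probe the brightest. All arrays of 3 weeks were above all those of 6 weeks, and within 6-week WKY replicate 2 stood above the others. Adrb3, the beta-adrenergic receptor of fat, had an interaction of 2.999 ± 0.83 (adjusted p 0.0199), and its level was -2.69, -3.89 and -2.69 in WKY at 3 weeks, -3.90, -4.39 and -5.29 in SHR at 3 weeks, -4.43, -3.83 and -5.38 in SHRSP at 3 weeks, -8.27, -5.24 and -8.01 in WKY at 6 weeks, -6.004, -5.43 and -5.57 in SHR at 6 weeks, and -4.70, -6.27 and -5.74 in SHRSP at 6 weeks. It fell in WKY, a fitted -4.08 with 1 of 3 arrays of 6 weeks well above background, where replicate 2 again stood above the others. For gene Adrb3 the adjusted p was 0.071 with array weights, 0.0716 with SHR alone and 0.0554 with SHRSP alone. Gene Adrb3 lost the call without WKY 3-week replicate 1 (2.80) or WKY 6-week replicates 1 (2.45) or 3 (2.58), and the slide-adjusted estimates were -0.20, 0.75 and 2.002. How far fat on the kidneys contributed was not tested.

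The remaining higher genes named by the rule fell with age in WKY, and their estimates depended on the slide level. Smpd3, a neutral sphingomyelinase, fell at least 2.74-fold in WKY, and its level was -5.29, -5.98 and -5.24 in WKY at 3 weeks, -5.23, -5.77 and -5.48 in SHR at 3 weeks, -5.15, -4.74 and -5.94 in SHRSP at 3 weeks, -7.42, -6.77 and -7.22 in WKY at 6 weeks, -4.02, -4.67 and -4.48 in SHR at 6 weeks, and -4.52, -4.30 and -4.43 in SHRSP at 6 weeks. At 6 weeks WKY was below the others without overlap, at least 5.88-fold. Its interaction, fitted against WKY at 6 weeks where it was at background, was 2.61 ± 0.34 (adjusted p 0.00015) with slide-adjusted 0.72, 1.12 and 2.12. Another probe of Smpd3 gave 0.88, also fitted against background in WKY at 6 weeks, so that value is no bound. Slco4a1, a carrier of organic anions, had 1.74 ± 0.37 (adjusted p 0.00426) with -0.40, 0.087 and 1.15. Trem3, a receptor of myeloid cells, had 1.54 ± 0.29 with 0.78, 0.94 and 1.34, and Serpina3n, a protease inhibitor, 1.36 ± 0.34 with -0.00035, 0.36 and 0.96. All 3 fell with age in WKY by limma, and gene Serpina3n gave 0.75 and 0.73 with normexp correction.

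Lamb3, a laminin chain, had 1.23 ± 0.33 (adjusted p 0.0179) with slide-adjusted -0.41, -0.22 and 0.89. Gene Lamb3 gave 0.69 and 0.67 with normexp correction and an adjusted p of 0.0551 with SHRSP alone. Gene Lamb3 lost the call without WKY 3-week replicate 2 (1.18) or WKY 6-week replicate 3 (1.14). Prkar2b, a regulatory subunit of protein kinase A, had 1.18 ± 0.33 with -0.48, -0.028 and 0.69, with adjusted p 0.059 for SHR alone and 0.0521 for SHRSP alone, and its call as gene Prkar2b ended without WKY 3-week replicate 1 (0.95) or WKY 6-week replicates 1 (1.01) or 3 (1.08).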

How the data were processed

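The deposited files hold scanner output of 18 single-colour arrays, and per the file headers the authors extracted the processed intensity values with Feature Extraction 10.5.1.1, which subtracts background and corrects for the position on the slide. The series matrix held the same values (0 differed at a relative tolerance of 1e-06), with medians of 184 to 362 intensity units per array. Of 42877 spots per array that are not controls, 198 to 480 were left out as non-uniform or as outliers among copies. Log2 signals of a probe's usable spots were averaged (1390 probes have 10 copies), and 8 of 30367 probes were left out because at least 1 array had no usable spot. A probe counted as well above background when over 50% of its usable spots were. Signals were scaled to the 75th percentile of clear spots, which ranged from 1857 to 3996.

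The 6 groups were fitted in limma 3.58.1 under R 4.3.3, with moderated t tests and adjustment by Benjamini and Hochberg over 20749 probes. Contrasts were growth in WKY, growth in SHR and SHRSP averaged, and their difference. The procedure was run on simulated data in which 200 of 20749 probes were changed by 2 (log2). It recovered 98% of them with 1 false call, which does not measure how far slides enter the calls. Symbols came from accessions (17492 probes), gene names (2598) or synonyms (705), 9572 probes had none, and 28418 had an rn4 position.

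Named genes need a symbol that does not begin with LOC, RGD, MGC, ENS or Olr and are read from the tested probe with the highest mean signal. They are the 12 most positive and 12 most negative called among probes well above background on all 18 arrays, the 4 and 4 most extreme of the other called, every called member of the lists, and in lists without a call the member with the highest mean signal. Members and lists were chosen with earlier results of these data known. Some genes that fit these rules are not reported here, and exceptions are named in the text.

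Alternatives were 4 scalings, normexp correction with an offset of 50, a floor under low signals, filters on dim probes, fold limits, array weights, an intensity trend, SHR and SHRSP as 1 group, blocks for replicate number, slide and scan day, each hypertensive strain alone, means by gene name, and the omission of single arrays. Slide-level fits, a slide block for WKY with slides 1 to 3, leaving out 2 arrays together, and probes with a symbol alone were chosen after seeing the data.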

Additional observations from a re-analysis of the deposited data

Results flagged for a closer look

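The change from 3 to 6 weeks differed between SHR and SHRSP on the one side and WKY on the other, by the limma interaction test, for 869 probes. Genes named by the rule, genes chosen later and the chromosome 17 probes are given here with that difference (log2). For C1galt1c1-ps1, Snx15, Cdk11b, Anxa13, Sds, Acta1, Klkb1, Abcb1a, Cyp8b1, Smpd3, Or10u3, Or10d5j, A_64_P046733, A_64_P146053 and A_64_P112729 at least 1 group had no array well above background, so the value is fitted and is no bound. C1galt1c1-ps1, Snx15, Cdk11b, Anxa13, Acta1, Abcb1a, Cyp8b1, Or10u3, Or10d5j, A_64_P046733 and A_64_P146053 were tested only through groups where they are high, so the test of the difference is not counted for them.

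The change was lower in SHR and SHRSP than in WKY for C1galt1c1-ps1 (-4.57), Cyp4a2 (-3.82), Dhrs7l1 (-3.80), Slco1a1 (-3.36), Snx15 (-3.36), Cdk11b (-2.84), Anxa13 (-2.82), Gclm (-2.54), Rpl23a-ps6 (-2.48), Sds (-2.14), Akr1c12l1 (-2.07), Rpl36al-ps5 (-2.03), Acta1 (-2.02), Ldlrad2 (-1.99), Btnl3 (-1.96), Zfp36 (-1.86), Pbp2 (-1.80), Noct (-1.80), Slc9a3 (-1.60), Ugt2b15 (-1.46), Tff3 (-1.46), Klkb1 (-1.44), Ccn2 (-1.35), Sult1b1 (-1.24), Kng1 (-1.21), Kcnma1 (-1.21), Slc22a2 (-1.15), Kng2 (-1.09), Gsta1 (-1.09), Th (-1.07), Sgk1 (-1.07), Tnfrsf11b (-1.06), Btg2 (-1.06), Cd8b (-1.01), Per1 (-1.01), Abcb1a (-1.004).

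It was higher in SHR and SHRSP for Ky (1.01), Entrep1 (1.16), Prkar2b (1.18), Lamb3 (1.23), Agt (1.25), Serpina3n (1.36), Trem3 (1.54), Slco4a1 (1.74), Cyp24a1 (1.98), Cyp8b1 (2.36), Smpd3 (2.61), Or10u3 (2.63), Cyp2c11 (2.80), Or10d5j (2.88), Adrb3 (2.999), A_64_P046733 (4.34), A_64_P146053 (3.14), A_64_P040038 (2.25), A_64_P115786 (2.15), A_64_P112729 (0.84).

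The rule for single outlying arrays does not take groups of 3 arrays, so it was not run, and no deposited array was left outside the comparison.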

How the results depend on the processing

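Counts of calls are given as interaction, growth in WKY and growth in the hypertensive strains, where 869, 769 and 715 are the values in the report. They were 314, 283 and 250 with normexp correction and quantile normalization and 384, 299 and 259 with normexp and the 75th percentile. For these 2 settings the classes of called probes: opposite numbered 214 and 263, the classes of called probes: blunted 50 and 49, and the classes of called probes: exaggerated 50 and 72. They were 4083, 7020 and 11632 with no fold limit, 183, 135 and 111 at 4-fold, and 241, 404 and 364 with gene names. Growth calls were 460 and 426 among probes well above background on all 18 arrays, and 311 and 1152 with scan day as a block. Interaction calls were 1308 with array weights, and 1483 with SHRSP alone, beside 1306 for its growth.

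Leaving out single arrays gave 762 (without WKY 3-week replicate 2) to 1027 (without SHRSP 3-week replicate 1) interaction calls, 671 to 862 for growth in WKY and 672 to 817 in the hypertensive strains.

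The contrast within a slide or day had no arrays to form it, and slide as a fixed block could not be fitted; as a random block it gave 929. Replicate numbers only are shared between groups: arrays of the same number correlated at -0.34 to 0.24 over 45 pairs (median 0.015), 6 of 18 arrays correlated best with their own number, and a replicate block gave 863.

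After seeing the data, slides 4 and 5 were set to the level of slide 1, 2 or 3, with 27, 47 and 380 calls. A slide block for WKY with slides 1 to 3 gave 139 and probes with a symbol alone 314. At the level of slide 1 the sign turned for gene Cdk11b (0.018), gene Gclm (0.44), gene Btnl3 (0.15), gene Pbp2 (0.0018), gene Slc9a3 (0.51), gene Ccn2 (0.18), gene Kcnma1 (0.55), gene Th (0.92), gene Abcb1a (0.024), gene Prkar2b (-0.48), gene Lamb3 (-0.41), gene Serpina3n (-0.00035), gene Slco4a1 (-0.40) and gene Adrb3 (-0.20). At the level of slide 2 it turned for gene Kcnma1 (0.015), gene Th (0.13), gene Prkar2b (-0.028) and gene Lamb3 (-0.22). With SHRSP alone gene Agt gave -0.49.

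Of 1209 values of named genes and chromosome 17 probes under the other planned settings, 1043 stayed on the same side of the threshold in the same direction, 162 fell short of it, 3 newly passed and 1 turned. Of 1008 values with an array left out, 943 stayed on the same side and 65 fell short. How far slides cause the lower calls was not tested.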
